A study of Homo sapiens with 9 samples.

Results

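Collagens and laminins are the main structural proteins outside the cell, and the ADAMTS proteases are secreted enzymes that trim them and the proteins around them. Their genes were taken from the count table as every GENCODE gene whose symbol has the form COL, number, A, number, or LAM, a letter from A to C, number, or ADAMTS, number. The rule found 75 of the 57820 GENCODE features of the table, of which 44 were collagens, 12 laminins and 19 ADAMTS proteases. All 75 had at least 1 count in the 9 libraries, so none was absent. They were measured in total RNA of PANC-1, an established cell line grown from a human pancreatic carcinoma, after 12 h of hypoxia. The cells were given rakicidin A at 42 nM, a cyclic lipid-bearing depsipeptide made by bacteria, BE-43547A1 at 41 nM, or the solvent DMSO at 0.04%. Each group had 3 libraries, the line is a single cancer cell line without stroma, and hypoxia was shared by all 3 groups, so each contrast compares hypoxic cells. How much DMSO the media with rakicidin A and BE-43547A1 held is not in the labels.

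Epithelia rest on basement membranes, thin sheets built on a network of laminin and a network of collagen IV. A laminin is a trimer of an alpha, a beta and a gamma chain. LAMA3 and LAMB3 encode an alpha and a beta chain of the laminin that ties epithelial cells to the membrane through integrins. Collagens are trimers too: fibrillar collagens form the fibrils of connective tissue, FACIT collagens sit on the surface of fibrils, collagen VI forms beaded filaments, and collagen VII forms the fibrils that anchor the basement membrane below. ADAMTS enzymes are metalloproteases with thrombospondin repeats, and their substrates include proteoglycans, the ends of procollagens and von Willebrand factor. In pancreatic carcinoma most of the collagen is known to come from stromal fibroblasts.

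Promoter sequence is shown for 3 genes around which the results turn: LAMB3 and LAMA3, partners in 1 laminin, of which LAMB3 rose with both compounds and LAMA3 passed with neither, and COL6A2, a chain of collagen VI. Each line holds the 250 bases before the start that RefSeq gives on GRCh38.p14, written 5′ to 3′ on the strand of the gene. The windows lie at chr1:209652426-209652675 on the minus strand (LAMB3), chr18:23872770-23873019 on the plus strand (LAMA3) and chr21:46097862-46098111 on the plus strand (COL6A2). Capitals mark matches to the AP-1 motif, which is bound by the early response factors of the FOS and JUN families.
LAMB3: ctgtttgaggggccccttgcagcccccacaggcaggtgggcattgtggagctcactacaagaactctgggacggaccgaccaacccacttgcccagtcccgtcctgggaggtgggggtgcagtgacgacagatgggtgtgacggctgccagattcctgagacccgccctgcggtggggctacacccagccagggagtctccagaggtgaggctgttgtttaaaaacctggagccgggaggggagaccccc
LAMA3: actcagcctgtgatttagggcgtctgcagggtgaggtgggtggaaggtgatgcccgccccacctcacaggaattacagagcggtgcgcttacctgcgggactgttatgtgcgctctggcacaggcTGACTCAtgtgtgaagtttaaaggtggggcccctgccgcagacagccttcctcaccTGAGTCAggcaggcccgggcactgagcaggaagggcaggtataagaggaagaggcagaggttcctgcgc
COL6A2: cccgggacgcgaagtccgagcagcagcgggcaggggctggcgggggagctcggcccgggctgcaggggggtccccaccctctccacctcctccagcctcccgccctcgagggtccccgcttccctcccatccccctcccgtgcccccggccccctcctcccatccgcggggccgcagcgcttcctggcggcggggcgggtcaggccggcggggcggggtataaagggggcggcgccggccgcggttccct
LAMA3 has more than 1 start, and the one shown matched 1 of 15 GENCODE transcripts. The start shown matched 1 of 5 transcripts for LAMB3 and 2 of 8 for COL6A2, so other starts of these genes may not be covered. RefSeq promoters were matched for 53 of the 75 genes, and 5 motifs were searched on both strands. TGAGTCA (AP-1) was found in LAMA3 alone, at -125 and -69 from the start, against 4.20% of all 35116 promoters of that length. A kappaB motif was found in COL7A1 alone, as GGAAATTCCC at -157, against 0.527% of all promoters. TGACGTCA (CRE, 1.65% of all promoters), TGATGNAA (C/EBP-ATF, 3.14%) and the ER stress element (ERSE, 0.0740%) were in none of the 53. A match describes these letters in this window and shows no binding, and the lack of one says nothing of a factor.

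Counts on annotated features came to 26203326 to 34870860 per library with rakicidin A, 39807220 to 45048999 with BE-43547A1 and 27696394 to 30596594 with DMSO. Levels are given as CPM, the usual count per library size, with library sizes scaled by TMM. Of the 75 genes, 46 had enough counts to be tested: 27 collagens, 11 laminins and 8 ADAMTS proteases. A further 29 had 2 to 61 counts in all 9 libraries together and were not tested. The labels state treatment in triplicate but not separate cultures for each step, so the spread behind the p-values is that among libraries and could be technical only. DMSO replicate 3 stood apart from its group, with 8879 CPM of the nuclear RNA MALAT1 against 4924 and 5003 CPM in the other DMSO libraries, and with 0.520% of counts from mitochondrial transcripts against 0.287% and 0.334%. In bulk RNA, fewer cells of a type and less RNA per cell cannot be told apart.

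With rakicidin A, 16 of the 46 tested genes were higher than with DMSO, 17 were lower and 13 did not pass (edgeR quasi-likelihood test, Benjamini-Hochberg adjusted p below 0.05 over 22353 features). That is 71.7% of them, against 64.7% of all features, with 31.9% of all features higher and 32.7% lower. With BE-43547A1, 16 were higher, 18 were lower and 12 did not pass, which is 73.9% against 70.4% of all features (35.3% higher and 35.1% lower). At this threshold both shares lie near the background. The median log2 fold change of the 46 genes was -0.05 with rakicidin A and 0.01 with BE-43547A1, against -0.02 and 0.00 for all features. Both comparisons use the same DMSO libraries, so their results are set side by side and their likeness is not tested. Without DMSO replicate 3 the counts were 16 higher and 16 lower with rakicidin A, and 15 higher and 18 lower with BE-43547A1. Scaled by total counts alone, the median of all features moved to -0.38 with rakicidin A and -0.24 with BE-43547A1, and the counts became 14 higher and 26 lower, and 14 higher and 22 lower. A small change is therefore a change relative to that median.

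Among laminins, 5 of 11 tested chains were higher and 4 lower with rakicidin A, and 4 were higher and 4 lower with BE-43547A1. That is 81.8% and 72.7% of them, against 64.7% and 70.4% of all features. The higher chains include LAMA1 and LAMA2 with rakicidin A and LAMA1 with BE-43547A1. Both genes met the count minimum with rakicidin A alone, so nothing is read from these counts. LAMB3, the beta chain of the epithelial laminin, had 15.9, 14.0 and 15.2 CPM with rakicidin A, 14.7, 14.95 and 15.1 CPM with BE-43547A1 and 2.11, 2.37 and 2.27 CPM with DMSO. All 6 treated libraries lay above all DMSO libraries, and the treated groups overlapped each other. LAMB3 rose by a log2 fold change of 2.74 ± 0.10 (± SE) with rakicidin A (adjusted p = 3.64e-14) and by 2.72 ± 0.10 with BE-43547A1 (adjusted p = 3.19e-14). LAMA3, the alpha chain of the same trimer, averaged 7.39 ± 1.03 CPM with rakicidin A, 7.86 ± 0.887 CPM with BE-43547A1 and 6.996 ± 0.555 CPM with DMSO (SD, n = 3). Its log2 fold changes of 0.09 ± 0.12 and 0.17 ± 0.11 did not pass (adjusted p = 0.547 and 0.199), the groups overlapped, and both became negative with total counts alone (-0.27 and -0.07).

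**Figure D1:**
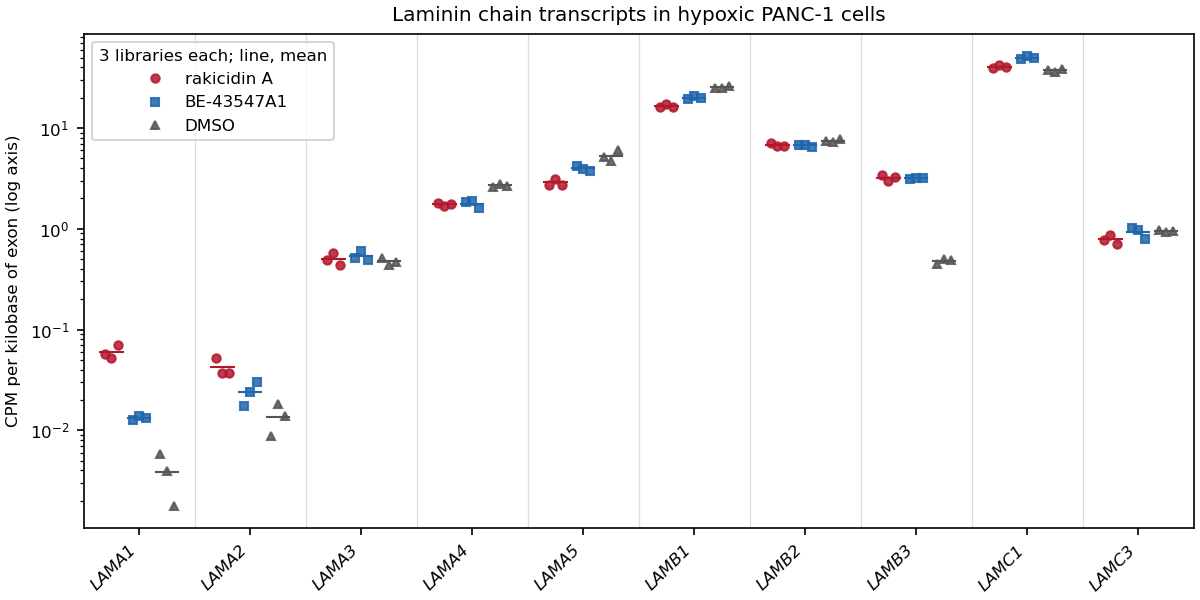
Levels of 10 of the 11 tested laminin chains as CPM per kilobase of exon on a log axis, with 1 point per library (3 with rakicidin A, 3 with BE-43547A1, 3 with DMSO) and a line at each mean. LAMB3 stands at 2.99 to 3.40 with rakicidin A, 3.13 to 3.21 with BE-43547A1 and 0.450 to 0.505 with DMSO, whereas the groups of LAMA3 overlap.

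The balance of LAMB3 and LAMA3 was read within each library, where the scaling between libraries cancels, as a ratio of CPM per kilobase of exon. LAMB3 over LAMA3 was 6.96, 5.17 and 7.32 with rakicidin A, 6.09, 5.28 and 6.56 with BE-43547A1 and 0.871, 1.15 and 1.03 with DMSO. The length used is that of all annotated exons of a gene merged, 4688 bases for LAMB3 and 14678 for LAMA3. A ratio near 1 in DMSO libraries therefore does not show equal numbers of transcripts. The higher ratio in all treated libraries does not depend on the length used. For this ratio the treated and DMSO libraries did not overlap, and the exact 2-sided permutation test gave p = 0.1 for each compound, the smallest that 3 against 3 allows. In all, 12 such ratios were compared in 3 ways, and none could reach a p below 0.05.

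LAMC1, the gamma chain of most laminins, had 333, 352 and 339 CPM with rakicidin A, 404.5, 433 and 421 CPM with BE-43547A1 and 313, 305 and 320.3 CPM with DMSO. The BE-43547A1 libraries were the highest and the 3 groups did not overlap. LAMC1 rose by 0.42 ± 0.05 with BE-43547A1 on the log2 scale (adjusted p = 8.87e-07). With rakicidin A it passed by little, at 0.13 ± 0.05 (adjusted p = 0.0419). With total counts alone LAMC1 was instead lower and passed (-0.23, adjusted p = 0.000464). The call as higher was lost without DMSO replicate 1 or 2 or rakicidin A replicate 2 or 3 (log2 0.11 to 0.15). LAMB1, the beta chain often paired with LAMC1, had 133, 142 and 132 CPM with rakicidin A, 159, 168 and 162 CPM with BE-43547A1 and 205, 202 and 211 CPM with DMSO. The 3 groups did not overlap, with the lowest levels after rakicidin A and the highest after DMSO. LAMB1 fell by 0.60 ± 0.05 with rakicidin A (adjusted p = 1.15e-08) and by 0.34 ± 0.05 with BE-43547A1 (adjusted p = 1.6e-05). Exons of DLD and a noncoding gene overlap LAMB1 on the opposite strand over 3.57% of its exon bases, and the strand setting of the counting is not given. LAMB1 over LAMC1 per length was 0.401 to 0.417 with rakicidin A, 0.397 to 0.407 with BE-43547A1 and 0.674 to 0.683 with DMSO, so the change in this ratio was larger than its spread in each group.

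LAMA5 and LAMA4, alpha chains of epithelial and of vascular and mesenchymal basement membranes, were lower with both compounds. LAMA5 averaged 41.15 ± 3.26 CPM with rakicidin A, 56.7 ± 3.35 CPM with BE-43547A1 and 76.1 ± 9.12 CPM with DMSO (SD, n = 3), and fell by 0.89 ± 0.08 and 0.42 ± 0.08 on the log2 scale (adjusted p = 1.79e-08 and 0.000101). LAMA4 averaged 20.2 ± 0.815, 20.5 ± 1.64 and 31.2 ± 1.08 CPM in the same order and fell by 0.62 ± 0.07 and 0.60 ± 0.07 (adjusted p = 6.06e-07 and 5.92e-07). LAMB2, the beta chain of neuromuscular and glomerular membranes, fell by 0.14 ± 0.06 with rakicidin A (adjusted p = 0.0458), and by 0.16 ± 0.06 with BE-43547A1 (adjusted p = 0.0223). With rakicidin A the LAMB2 call was lost with any 1 library left out other than DMSO replicate 2 (-0.16 to -0.11), and with BE-43547A1 without any of its own libraries (-0.16 to -0.13). LAMC3 did not pass with rakicidin A (-0.27 ± 0.12, adjusted p = 0.0507) or with BE-43547A1 (-0.03 ± 0.11, adjusted p = 0.791), but was lower and passed with total counts alone (-0.63 and -0.27). The rakicidin A call for LAMC3 was also made without rakicidin A replicate 2 (-0.34) or BE-43547A1 replicate 3 (-0.25).

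The remaining alpha chains were close to the limit of detection. LAMA1, the alpha chain of early embryonic laminins, had 25, 26 and 26 counts with rakicidin A, 9, 9 and 8 counts with BE-43547A1 and 3, 2 and 1 counts with DMSO. As CPM these were 0.910, 0.831 and 1.12 with rakicidin A, 0.202, 0.222 and 0.209 with BE-43547A1 and 0.0917, 0.0632 and 0.0284 with DMSO, and the 3 groups did not overlap. The fitted log2 fold change was 3.89 ± 0.41 with rakicidin A (adjusted p = 1.22e-07) and 1.75 ± 0.52 with BE-43547A1 (adjusted p = 0.00607), and its size depends on few DMSO counts. Noncoding genes on the opposite strand overlap 11.1% of the exon bases of LAMA1, so its counts are uncertain if strand was not used. LAMA2, the muscle laminin chain, had 0.546, 0.384 and 0.387 CPM with rakicidin A, 0.180, 0.247 and 0.314 CPM with BE-43547A1 and 0.0917, 0.1895 and 0.142 CPM with DMSO. It rose by 1.62 ± 0.42 with rakicidin A (adjusted p = 0.0025), where the groups did not overlap, and did not pass with BE-43547A1 (0.78 ± 0.44, adjusted p = 0.122), where they did. Per length, LAMA1 and LAMA2 stayed below every other tested chain in all groups. LAMA1 and LAMA2 met the count minimum with rakicidin A alone, so they entered the tested set through the group where they are high and their tests carry little weight. Of the 46 tested genes, 37 met the minimum in every group. ADAMTS17 and COL22A1 met it with BE-43547A1 alone, COL20A1 and COL5A3 with both compounds but not with DMSO, ADAMTS10 and ADAMTS13 with DMSO alone, and COL17A1 with rakicidin A and DMSO.

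**Figure D2:**
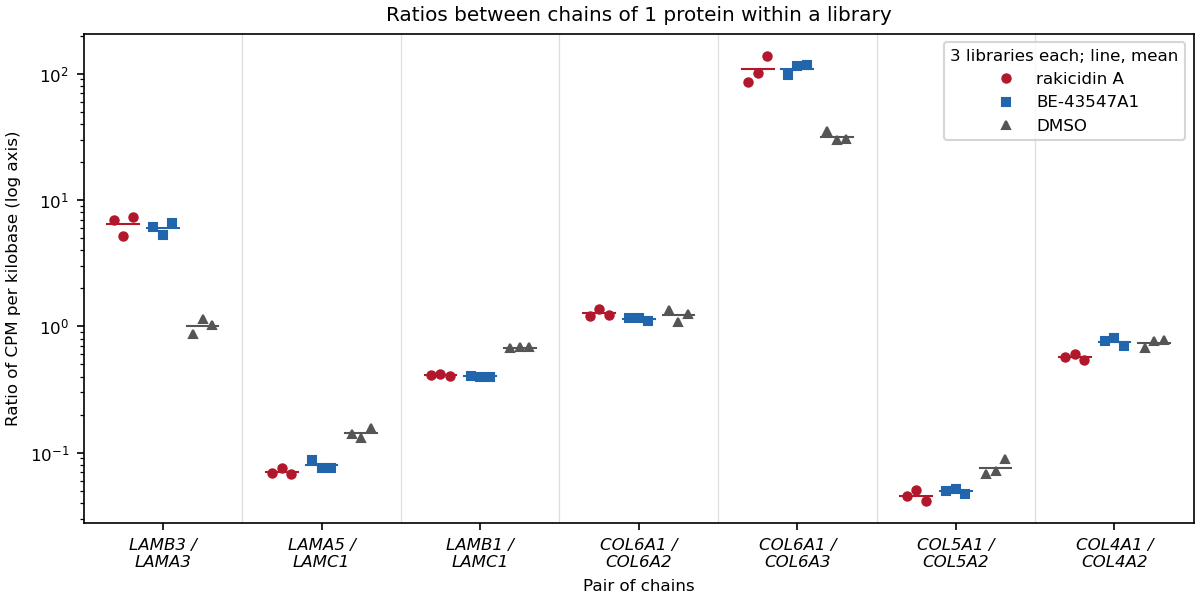
Ratios between chains of 1 protein as CPM per kilobase of exon within a library on a log axis, with 1 point per library and a line at each mean of 3. LAMB3 over LAMA3 averages 6.48 with rakicidin A, 5.98 with BE-43547A1 and 1.01 with DMSO. COL6A1 over COL6A2 lies between 1.08 and 1.37 in all 9 libraries, and each rakicidin A library is above each BE-43547A1 library.

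Among collagens, 8 of 27 tested genes were higher and 9 lower with rakicidin A, and 9 were higher and 10 lower with BE-43547A1. That is 63.0% and 70.4% of them, against 64.7% and 70.4% of all features, which is near the background. The higher genes include COL20A1 and COL5A3, which did not meet the count minimum with DMSO. COL18A1, a basement membrane collagen whose C-terminal fragment is endostatin, and COL5A2, a chain of the fibrillar collagen V, were the most abundant. Per length they made up 40.5% and 28.0% of all collagen transcripts with rakicidin A, 45.2% and 23.1% with BE-43547A1 and 40.3% and 26.5% with DMSO. COL18A1 had 511, 515 and 464.5 CPM with rakicidin A, 656, 631 and 605 CPM with BE-43547A1 and 540.2, 491.5 and 499 CPM with DMSO. The BE-43547A1 libraries lay above all others, and rakicidin A and DMSO overlapped. It rose by 0.30 ± 0.06 with BE-43547A1 (adjusted p = 0.000152), a call lost with total counts alone (0.07, adjusted p = 0.313), and did not pass with rakicidin A (-0.04 ± 0.06, adjusted p = 0.582). Exons of SLC19A1 lie opposite 16.4% of the exon bases of COL18A1, so its counts are uncertain if strand was not used. COL5A2 had 299, 297 and 303.5 CPM with rakicidin A, 289, 273 and 283 CPM with BE-43547A1 and 315, 293 and 272 CPM with DMSO. Its groups overlapped, and its log2 changes of 0.03 ± 0.06 and -0.06 ± 0.06 did not pass, although both were lower and passed with total counts alone (-0.33 and -0.30).

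Collagen VI split by chain. COL6A1 had 37.2, 37.0 and 33.9 CPM with rakicidin A, 40.3, 39.5 and 39.7 CPM with BE-43547A1 and 15.1, 13.0 and 15.8 CPM with DMSO. COL6A2, which lies beside it on chromosome 21, had 30.9, 27.3 and 27.8 CPM with rakicidin A, 34.7, 34.1 and 36.0 CPM with BE-43547A1 and 11.4, 12.1 and 12.7 CPM with DMSO. For both genes no treated library overlapped a DMSO library. COL6A1 rose by 1.30 ± 0.08 with rakicidin A and 1.44 ± 0.07 with BE-43547A1 (adjusted p = 2.78e-11 and 4.79e-12). COL6A2 rose by 1.25 ± 0.07 and 1.53 ± 0.07 (adjusted p = 4.04e-11 and 1.46e-12). COL6A3, the longest chain and part of the usual trimer, averaged 1.28 ± 0.354 CPM with rakicidin A, 1.34 ± 0.144 CPM with BE-43547A1 and 1.70 ± 0.176 CPM with DMSO (SD, n = 3). It did not pass (-0.39 ± 0.21 and -0.34 ± 0.19, adjusted p = 0.109 and 0.125), though it was lower and passed with total counts alone (-0.75 and -0.58). Per length COL6A1 over COL6A3 was 85.3, 101.3 and 138.1 with rakicidin A, 98.3, 115.2 and 116.3 with BE-43547A1 and 35.0, 29.6 and 30.5 with DMSO. COL6A3 was thus scarce beside its partners in every library, and more so in treated ones. COL6A1 over COL6A2 was 1.21 to 1.37 with rakicidin A, 1.11 to 1.17 with BE-43547A1 and 1.08 to 1.34 with DMSO. Each treated group overlapped the DMSO libraries, while the treated groups did not overlap each other.

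Fibrillar collagens moved both ways. COL27A1, a fibrillar collagen of developing cartilage, had 27.2, 29.5 and 26.8 CPM with rakicidin A, 29.5, 30.3 and 28.3 CPM with BE-43547A1 and 10.9, 10.7 and 13.7 CPM with DMSO. COL11A2, a chain of cartilage collagen XI, had 1.49, 1.34 and 1.33 CPM with rakicidin A, 1.66, 1.56 and 1.54 CPM with BE-43547A1 and 0.764, 0.663 and 0.398 CPM with DMSO. In both genes every treated library exceeded every DMSO library. COL27A1 rose by 1.24 ± 0.09 and 1.32 ± 0.09 with rakicidin A and BE-43547A1 (adjusted p = 5.14e-10 and 1.61e-10), and COL11A2 by 1.20 ± 0.24 and 1.39 ± 0.22 (adjusted p = 0.000242 and 1.96e-05). COL5A3, the rarest collagen V chain, had 32, 36 and 24 counts with rakicidin A, 36, 31 and 39 counts with BE-43547A1 and 4, 5 and 7 counts with DMSO. That is 1.165, 1.15 and 1.03 CPM with rakicidin A, 0.810, 0.766 and 1.02 CPM with BE-43547A1 and 0.122, 0.158 and 0.199 CPM with DMSO, with no overlap among the 3 groups. COL5A3 rose by 2.77 ± 0.31 with rakicidin A (adjusted p = 2.9e-07) and by 2.40 ± 0.31 with BE-43547A1 (adjusted p = 1.56e-06), and a noncoding gene lies opposite 4% of its exon bases. COL5A3 was tested only through the groups where it is high, so these p-values are no independent support.

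COL1A1, the main chain of collagen I, had 2.98, 3.13 and 4.08 CPM with rakicidin A, 5.195, 4.595 and 3.66 CPM with BE-43547A1 and 7.24, 5.24 and 9.43 CPM with DMSO. The DMSO libraries were the most spread, yet the lowest of them exceeded every treated library. It fell by 1.12 ± 0.19 with rakicidin A (adjusted p = 4.76e-05) and by 0.70 ± 0.18 with BE-43547A1 (adjusted p = 0.00153). Its partner COL1A2 had only 26 counts in all 9 libraries and was not tested. COL5A1, the obligate chain of collagen V, averaged 20.55 ± 1.87 CPM with rakicidin A, 20.9 ± 0.942 CPM with BE-43547A1 and 33.3 ± 2.46 CPM with DMSO and fell by 0.69 ± 0.08 and 0.67 ± 0.08 (adjusted p = 3.9e-07 and 3.83e-07). COL11A1 averaged 151 ± 2.22, 165 ± 6.5 and 183.5 ± 1.92 CPM in the same order and fell by 0.28 ± 0.05 and 0.15 ± 0.05, small changes that both passed (adjusted p = 0.000103 and 0.0142), the one with BE-43547A1 lost without its replicate 1 or 2 (-0.10 and -0.14). COL3A1, the fibrillar collagen of vessels and skin, had -0.39 ± 0.22 with rakicidin A (adjusted p = 0.134) and -0.51 ± 0.21 with BE-43547A1 (adjusted p = 0.0355), a call lost without BE-43547A1 replicate 2 or 3 or DMSO replicate 1 or 2 (-0.54 to -0.39).

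**Figure D3:**
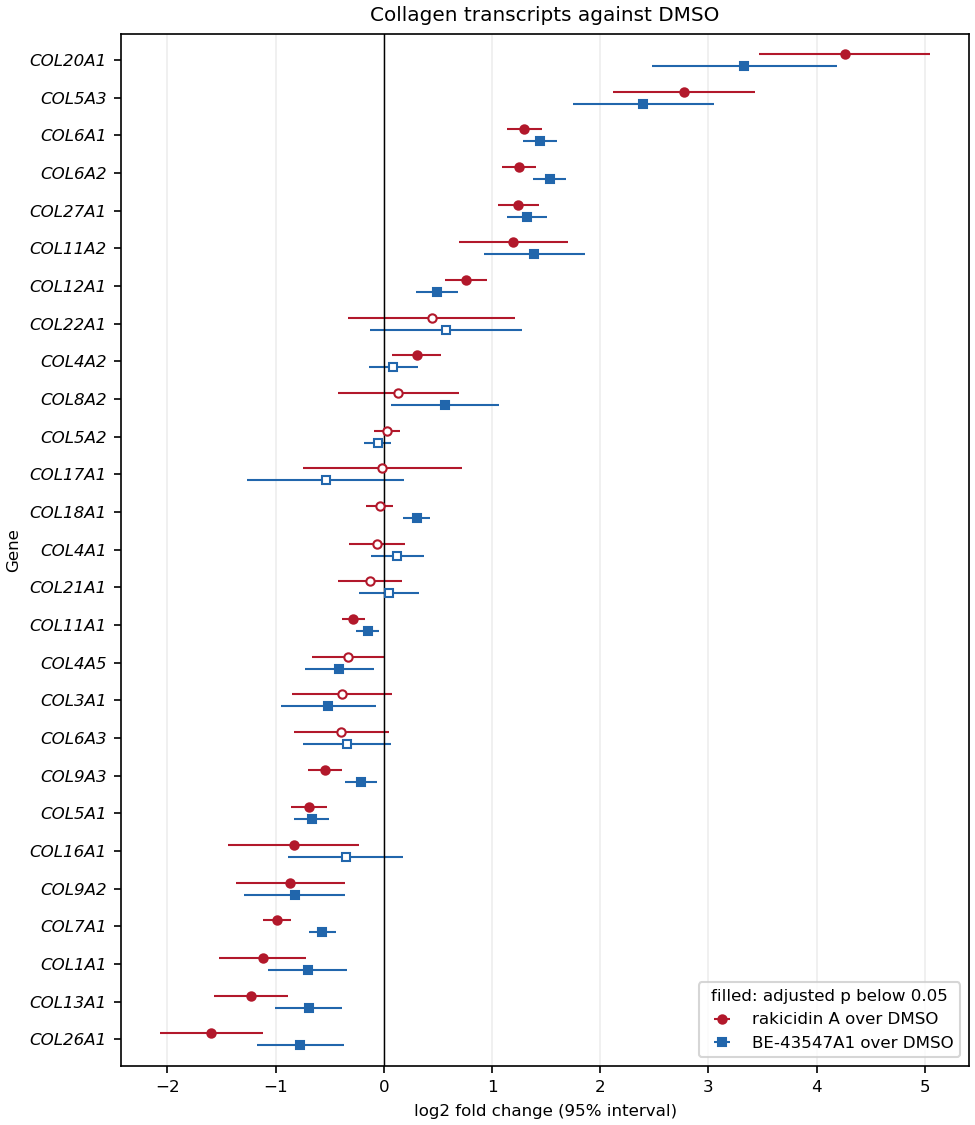
Log2 fold change over DMSO of the 27 tested collagens, with 95% intervals, for rakicidin A (circles, upper of each pair) and BE-43547A1 (squares), filled where the adjusted p is below 0.05. The changes span 4.26 (COL20A1) to -1.59 (COL26A1) with rakicidin A, and COL6A1, COL6A2 and COL27A1 lie between 1.24 and 1.53 with both compounds.

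Of 7 tested FACIT and related collagens, 2 were higher and 3 lower with rakicidin A, and 2 were higher and 2 lower with BE-43547A1. That is 71.4% and 57.1% of them, against 64.7% and 70.4% of all features. COL20A1, a FACIT collagen described in the chick embryo, had 41, 42 and 33 counts with rakicidin A, 26, 27 and 38 counts with BE-43547A1 and 3, 2 and 2 counts with DMSO. As CPM it had 1.49, 1.34 and 1.42 with rakicidin A, 0.585, 0.667 and 0.993 with BE-43547A1 and 0.0917, 0.0632 and 0.0568 with DMSO, and the groups stood in this order without overlap. Its fitted changes of 4.26 ± 0.38 and 3.33 ± 0.41 (adjusted p = 1.03e-08 and 7.09e-07) rest on 2 or 3 counts in each DMSO library. COL20A1 was tested only through the groups where it is high, so these p-values are no independent support. COL12A1, which binds collagen I fibrils, averaged 11.6 ± 0.178 CPM with rakicidin A, 9.64 ± 0.520 CPM with BE-43547A1 and 6.85 ± 0.539 CPM with DMSO and rose by 0.76 ± 0.09 and 0.49 ± 0.09 (adjusted p = 9.6e-07 and 0.000113). COL9A3 and COL9A2, chains of cartilage collagen IX, both fell. COL9A3 fell by 0.54 ± 0.08 and 0.21 ± 0.07 (adjusted p = 3.92e-06 and 0.0136), a call lost with BE-43547A1 without its replicate 1 or 2 (-0.16 and -0.19), and COL9A2 by 0.86 ± 0.24 and 0.82 ± 0.22 (adjusted p = 0.00395 and 0.0028). COL16A1 fell by 0.84 ± 0.29 with rakicidin A (adjusted p = 0.0166), a call lost without DMSO replicate 2 or rakicidin A replicate 1 or 3 (-0.71 to -0.59), and did not pass with BE-43547A1 (-0.35 ± 0.25, adjusted p = 0.219).

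COL7A1, the anchoring fibril collagen, averaged 58.5 ± 4.17 CPM with rakicidin A, 78.3 ± 1.40 CPM with BE-43547A1 and 116 ± 4.17 CPM with DMSO. The 3 groups did not overlap, and it fell by 0.99 ± 0.06 and 0.57 ± 0.06 (adjusted p = 4.71e-11 and 8.23e-08). COL13A1, a transmembrane collagen of cell adhesions, had 2.00, 1.82 and 2.75 CPM with rakicidin A, 2.74, 3.71 and 2.93 CPM with BE-43547A1 and 4.86, 5.12 and 5.20 CPM with DMSO. COL26A1 had 0.801, 0.959 and 0.5155 CPM with rakicidin A, 1.15, 1.73 and 1.255 CPM with BE-43547A1 and 2.38, 2.31 and 2.36 CPM with DMSO. Every DMSO library of COL13A1 and COL26A1 lay above every treated one. COL13A1 fell by 1.23 ± 0.16 and 0.70 ± 0.15 (adjusted p = 2.4e-06 and 0.000332), and COL26A1 by 1.59 ± 0.23 and 0.77 ± 0.19 (adjusted p = 5.53e-06 and 0.00149). The collagen IV chains of the basement membrane moved little. COL4A1 did not pass with either compound (-0.06 ± 0.12 and 0.12 ± 0.12), though with total counts alone it was lower with rakicidin A (-0.42, adjusted p = 0.00563). COL4A2 passed with rakicidin A alone at 0.30 ± 0.11 (adjusted p = 0.0212), which was -0.05 with total counts alone and lost its call without rakicidin A replicate 3 (0.21). COL4A5, of the minor collagen IV network, fell with BE-43547A1 by 0.41 ± 0.15 (adjusted p = 0.0211), a call lost without BE-43547A1 replicate 2 or 3 or DMSO replicate 2 or 3 (-0.39 to -0.36). COL8A2, a short-chain collagen of the cornea, rose with BE-43547A1 by 0.57 ± 0.24 (adjusted p = 0.04), a call lost with DESeq2 (adjusted p = 0.125), with total counts alone (0.33) and without BE-43547A1 replicate 1 or 3 or DMSO replicate 2 or 3 (0.47 to 0.55). COL21A1 and COL22A1 did not pass with either compound (log2 -0.13 to 0.57), though COL21A1 was lower and passed with rakicidin A with total counts alone (-0.49, adjusted p = 0.00534). COL17A1, the collagen of hemidesmosomes, where the laminin of LAMB3 binds, averaged 0.540 ± 0.126 CPM with rakicidin A, 0.3695 ± 0.177 CPM with BE-43547A1 and 0.541 ± 0.0730 CPM with DMSO and did not pass (adjusted p = 0.975 and 0.173).

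Of 8 tested ADAMTS proteases, 3 were higher, 4 lower and 1 did not pass, with either compound. That is 87.5% passing with each, against 64.7% of all features with rakicidin A and 70.4% with BE-43547A1. The lower genes include ADAMTS10 and ADAMTS13, which met the count minimum in every library of DMSO alone, so nothing is read from these counts. ADAMTS15, a proteoglycanase that cuts versican and aggrecan, had 2.58, 3.23 and 3.61 CPM with rakicidin A, 5.105, 4.595 and 4.10 CPM with BE-43547A1 and 34.7, 29.3 and 32.4 CPM with DMSO. All treated libraries lay far below all DMSO libraries, and the treated groups did not overlap each other. It fell by 3.36 ± 0.12 with rakicidin A (adjusted p = 1.33e-14) and by 2.80 ± 0.11 with BE-43547A1 (adjusted p = 4.19e-14). ADAMTS16, a protease that can cleave fibronectin, had 15.7, 16.5 and 16.15 CPM with rakicidin A, 10.6, 9.66 and 11.1 CPM with BE-43547A1 and 3.06, 3.73 and 3.35 CPM with DMSO. The 3 groups stood in this order with no overlap. It rose by 2.25 ± 0.10 with rakicidin A (adjusted p = 6.13e-13) and by 1.63 ± 0.10 with BE-43547A1 (adjusted p = 7.86e-11). The leading ADAMTS transcript therefore differed between groups. Per length, ADAMTS15 made up 12.5% of the family's transcripts with rakicidin A, 21.5% with BE-43547A1 and 79.0% with DMSO. ADAMTS16 made up 62.4% with rakicidin A, 47.3% with BE-43547A1 and 8.09% with DMSO. Within libraries, ADAMTS16 over ADAMTS15 was 4.33 to 5.87 with rakicidin A, 2.02 to 2.61 with BE-43547A1 and 0.0853 to 0.123 with DMSO, a ratio free of the scaling.

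**Figure D4:**
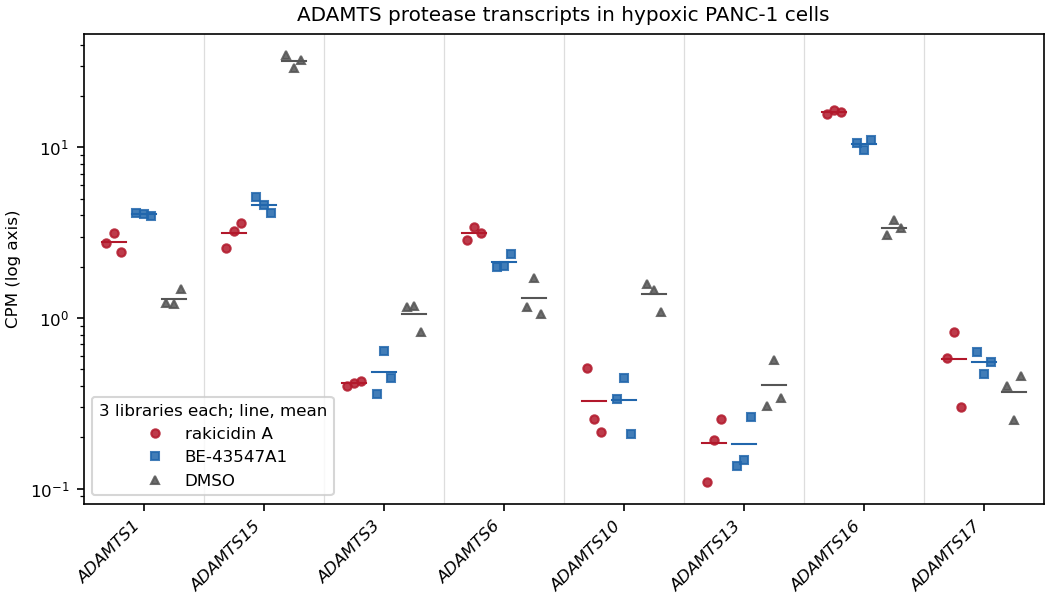
Levels of the 8 tested ADAMTS genes as CPM on a log axis, with 1 point per library (3 per group) and a line at each mean. ADAMTS15 averages 3.14 with rakicidin A, 4.60 with BE-43547A1 and 32.1 with DMSO, and ADAMTS16 16.1, 10.4 and 3.38 in the same groups.

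ADAMTS1, which also cuts versican and aggrecan, had 2.77, 3.165 and 2.45 CPM with rakicidin A, 4.12, 4.08 and 3.95 CPM with BE-43547A1 and 1.22, 1.20 and 1.48 CPM with DMSO. The BE-43547A1 libraries were the highest, and no groups overlapped. ADAMTS1 rose by 1.11 ± 0.17 with rakicidin A (adjusted p = 1.03e-05) and by 1.63 ± 0.15 with BE-43547A1 (adjusted p = 2.02e-08), so the pair of tested proteoglycanases moved in opposite directions. ADAMTS6, a relative of ADAMTS10, had 2.875, 3.42 and 3.14 CPM with rakicidin A, 2.00, 2.03 and 2.38 CPM with BE-43547A1 and 1.16, 1.71 and 1.05 CPM with DMSO. ADAMTS10, which binds fibrillin, had 0.5095, 0.256 and 0.215 CPM with rakicidin A, 0.337, 0.445 and 0.209 CPM with BE-43547A1 and 1.59, 1.45 and 1.08 CPM with DMSO. Neither gene's treated libraries overlapped its DMSO libraries, above them for ADAMTS6 and below them for ADAMTS10. ADAMTS6 rose by 1.28 ± 0.19 and 0.71 ± 0.19 (adjusted p = 8.32e-06 and 0.00244), and ADAMTS10 fell by 2.05 ± 0.33 and 2.03 ± 0.30 (adjusted p = 2.28e-05 and 6.98e-06). ADAMTS10 met the count minimum in every library of DMSO alone, the group where it is high. The filter asks for any 3 libraries. Rakicidin A replicate 1 and BE-43547A1 replicates 1 and 2 (14, 15 and 18 counts) reached the minimum too. The filter thus did not set its direction, but its falls rest on 5 to 18 counts in the treated libraries. ADAMTS3, which removes the amino-terminal propeptide of procollagens and activates VEGF-C, had 0.400, 0.416 and 0.430 CPM with rakicidin A, 0.360, 0.642 and 0.444 CPM with BE-43547A1 and 1.16, 1.17 and 0.824 CPM with DMSO. All 3 DMSO libraries were above all treated ones, and ADAMTS3 fell by 1.33 ± 0.29 and 1.12 ± 0.26 (adjusted p = 0.000599 and 0.000877).

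ADAMTS13, the protease of von Willebrand factor, had 3, 6 and 6 counts with rakicidin A, 6, 6 and 10 counts with BE-43547A1 and 10, 18 and 12 counts with DMSO. As CPM this was 0.109, 0.192 and 0.258 with rakicidin A, 0.135, 0.148 and 0.261 with BE-43547A1 and 0.306, 0.5685 and 0.341 with DMSO, with no overlap between treated and DMSO libraries. Its falls of 1.12 ± 0.44 and 1.15 ± 0.40 passed by little (adjusted p = 0.0342 and 0.0166). ADAMTS13 was tested only through its DMSO counts, the group where it is high, so its direction was set by the filter. Both calls were lost with DESeq2 (adjusted p = 0.106 and 0.0685) and without DMSO replicate 2 (-0.81 and -0.85), and also without rakicidin A replicate 1 or 2 (-0.84 and -1.15) and without BE-43547A1 replicate 1 or 2 (-0.95 and -1.02). ADAMTS17 did not pass (0.67 ± 0.36 and 0.57 ± 0.34, adjusted p = 0.116 and 0.149), but passed with rakicidin A at 0.95 without its replicate 3 (adjusted p = 0.027). A noncoding gene lies opposite 5.23% of the exon bases of ADAMTS17.

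Changes of at least 1 on the log2 scale were 13 up and 7 down with rakicidin A, which is 43.5% of the 46 genes (28.3% up and 15.2% down), against 27.8% of all features (14% up and 13.8% down). With BE-43547A1 they were 11 up and 4 down, which is 32.6% (23.9% up and 8.70% down) against 31.7% of all features (17.5% up and 14.1% down). These counts include LAMA1, LAMA2, COL20A1, COL5A3, ADAMTS10 and ADAMTS13, which did not meet the count minimum in every group, so nothing is read from them. The CPM of the treated and DMSO libraries did not overlap for 35 of the 46 genes with rakicidin A and 39 with BE-43547A1, against 67.5% and 71.6% of all features.

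Calls near the threshold moved with further settings. Against DMSO with rakicidin A, LAMB2 did not pass with no count filter, with RLE size factors or with DESeq2 (-0.15 to -0.13). Nor did LAMB2 pass with the replicate number as a block (-0.14) or with only the 6 libraries compared (-0.12). LAMC1 did not pass with no filter or after thinning (0.12 in both), ADAMTS13 did not pass with no filter (-1.13), and LAMC3 passed after thinning (-0.30). With BE-43547A1, COL9A3, COL11A1, COL4A5, COL3A1, LAMB2 and COL8A2 did not pass with no filter (adjusted p = 0.0726 to 0.148), COL4A5 and COL3A1 did not pass with DESeq2 (adjusted p = 0.0583 and 0.103), and COL8A2 did not pass after thinning (0.46) or with only the 6 libraries compared (0.57). With total counts alone, COL18A1 (-0.40), COL4A5 (-0.69) and COL3A1 (-0.74) were lower and passed with rakicidin A, and COL16A1 (-0.59) with BE-43547A1. COL4A5 also passed with rakicidin A without DMSO replicate 1 (-0.43), and COL5A2 with BE-43547A1 without DMSO replicate 3 (-0.12).

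The compounds were then set against each other, at doses that differ by 1 nM. With rakicidin A, 5 of the 46 genes were higher than with BE-43547A1, 12 were lower and 29 did not pass, which is 37.0% against 46.6% of all features (24.1% higher and 22.5% lower). Without DMSO replicate 3, which bears on the shared estimate of spread, 5 were higher and 13 lower. Only LAMA1 changed by at least 1, at 2.14 ± 0.30 (adjusted p = 1.41e-05), against 9.69% of all features that did (2.16% higher and 7.53% lower). LAMA1 met the count minimum with rakicidin A alone, so this difference, of 25 to 26 counts with rakicidin A against 8 to 9 with BE-43547A1, is given as a description. COL20A1 (0.93 ± 0.23, adjusted p = 0.00297), ADAMTS16 (0.62 ± 0.09, adjusted p = 1.31e-05), ADAMTS6 (0.56 ± 0.17, adjusted p = 0.0109) and COL12A1 (0.27 ± 0.09, adjusted p = 0.0191) were the other genes higher with rakicidin A. The call of ADAMTS6 was lost without rakicidin A replicate 2 (0.50), and that of COL12A1 without rakicidin A replicate 3 or BE-43547A1 replicate 1 or 2 (0.22 to 0.27), with total counts alone (0.15), with no count filter (0.24) and after thinning (0.23). The lowest were COL26A1 (-0.82 ± 0.24, adjusted p = 0.00836), ADAMTS15 (-0.56 ± 0.13, adjusted p = 0.00201), COL13A1 (-0.53 ± 0.17, adjusted p = 0.0146) and ADAMTS1 (-0.52 ± 0.14, adjusted p = 0.00471). COL26A1 lost its call without rakicidin A replicate 3 or BE-43547A1 replicate 2 (-0.63 in both), and COL13A1 without rakicidin A replicate 1 or 2 or BE-43547A1 replicate 2 (-0.47 to -0.39) and after thinning (-0.36).

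**Figure D5:**
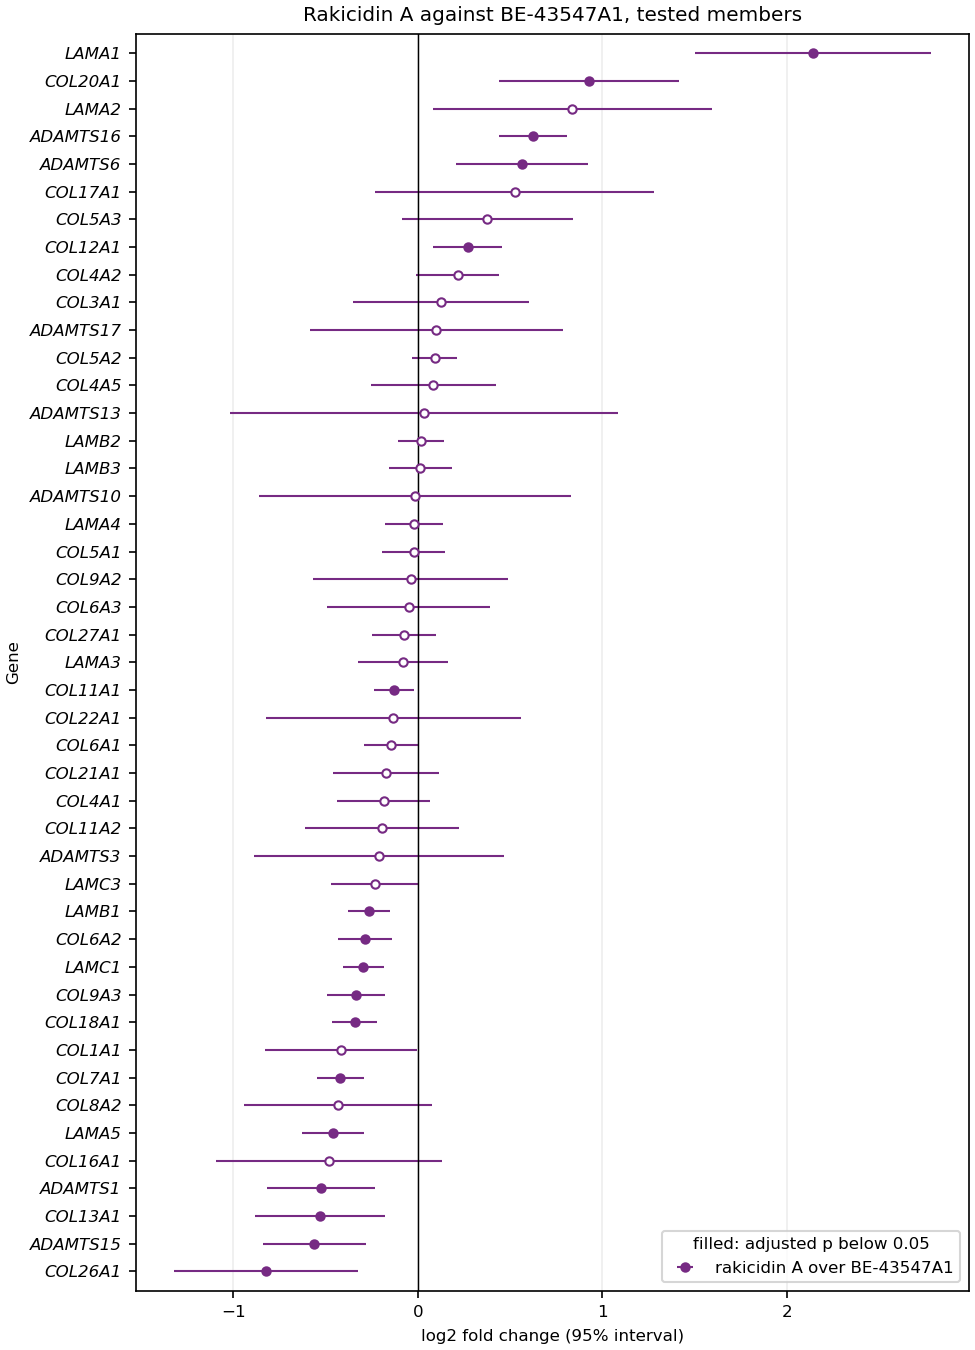
Log2 fold change of rakicidin A over BE-43547A1 with its 95% interval for 45 of the 46 tested genes, filled where the adjusted p is below 0.05. LAMA1 stands alone at 2.14, and LAMB3 (0.01) and COL27A1 (-0.08) lie at 0 within their intervals.

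Among the abundant chains, LAMA5 (-0.46 ± 0.08, adjusted p = 0.000136), COL18A1 (-0.34 ± 0.06, adjusted p = 0.000104), LAMC1 (-0.30 ± 0.05, adjusted p = 0.000139) and LAMB1 (-0.26 ± 0.05, adjusted p = 0.000507) were lower with rakicidin A, and COL7A1 (-0.42 ± 0.06, adjusted p = 1.43e-05) and COL9A3 (-0.33 ± 0.07, adjusted p = 0.00129) were as well. COL6A2 was lower too (-0.29 ± 0.07, adjusted p = 0.00239), while COL6A1 did not pass (-0.14 ± 0.07, adjusted p = 0.105) but was lower and passed with total counts alone (-0.26) and with only the 6 libraries compared (-0.15, adjusted p = 0.0301). COL11A1 was the last of the 12, at -0.13 ± 0.05 (adjusted p = 0.045). It lost this call with any 1 library left out other than DMSO replicate 3 or BE-43547A1 replicate 1 (-0.13 to -0.10). The call was also lost with no filter, RLE size factors, the replicate number as a block or DESeq2 (adjusted p = 0.0566 to 0.0913). LAMC3 did not pass (-0.23 ± 0.11, adjusted p = 0.104), but passed with total counts alone (-0.35) and without BE-43547A1 replicate 3 (-0.33). COL4A1 with total counts alone (-0.30) and COL16A1 and COL4A2 without rakicidin A replicate 2 (-0.97 and 0.32) passed as well. Several of the largest changes against DMSO did not differ detectably between the compounds. For LAMB3 the difference was 0.01 with a 95% interval of -0.16 to 0.18. For COL27A1 the difference was -0.08 (-0.25 to 0.10), for ADAMTS10 -0.01 (-0.86 to 0.83) and for COL5A3 0.38 (-0.09 to 0.84). The interval of LAMB3 holds differences of under 0.2 in size, while that of ADAMTS10 is too wide to tell. LAMA2 and COL1A1 missed the threshold after adjustment, though their intervals, which are not adjusted, lay on 1 side of 0. For LAMA2 the difference was 0.84 (0.08 to 1.59, adjusted p = 0.0655) and the CPM of the groups did not overlap. For COL1A1 it was -0.42 (-0.83 to -0.0028, adjusted p = 0.0923) and the groups overlapped. COL1A1 was lower and passed with total counts alone (-0.54), with no count filter (-0.44), with only the 6 libraries compared (-0.42) and without BE-43547A1 replicate 3 (-0.54) or DMSO replicate 2 or 3 (-0.41 in both).

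Other genes of the matrix were taken from lists of what makes, holds and reads collagens and laminins, and their changes are given as counts, with risen and fallen genes passing the same threshold. The shares of all features to read them against are 31.9% higher and 32.7% lower with rakicidin A and 35.3% higher and 35.1% lower with BE-43547A1. With total counts alone these shares became 20% higher and 51% lower with rakicidin A and 26.6% higher and 46.7% lower with BE-43547A1, and the balance of each list moved as well. Of 26 tested genes of collagen processing and secretion, 8 rose and 11 fell with rakicidin A, and 8 rose and 9 fell with BE-43547A1. Under total counts 5 rose and 15 fell with rakicidin A, and 4 rose and 11 fell with BE-43547A1. P4HB, the shared subunit of prolyl 4-hydroxylase and a disulfide isomerase, averaged 1807 ± 14.0 CPM with rakicidin A, 1321 ± 14.5 CPM with BE-43547A1 and 493 ± 53.3 CPM with DMSO, and rose by 1.88 ± 0.07 and 1.42 ± 0.06. PPIB, a prolyl isomerase of the endoplasmic reticulum, rose by 2.07 ± 0.06 and 1.65 ± 0.06. P4HA2, a catalytic subunit of prolyl 4-hydroxylase, fell by 0.88 ± 0.07 and 0.89 ± 0.07, and PCOLCE2, which speeds up cleavage of the procollagen C-terminus, by 0.91 ± 0.09 and 0.91 ± 0.08. The summed level of this list was 6347 to 6589 CPM with rakicidin A, 4723 to 5029 CPM with BE-43547A1 and 3590 to 3729 CPM with DMSO, while the list's median log2 changes were -0.09 and -0.02. The adjusted p-values of these 4 genes ranged from 3.6e-16 to 2.88e-08 over both compounds.

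Of 12 tested partners in the basement membrane, 4 rose and 2 fell with rakicidin A, and 7 rose and 1 fell with BE-43547A1. With total counts alone more fell than rose with rakicidin A (3 rose and 5 fell), and 3 rose and 2 fell with BE-43547A1. NTN4, a netrin that binds laminin gamma chains, averaged 163 ± 9.29 CPM with rakicidin A, 95.5 ± 5.94 CPM with BE-43547A1 and 58.2 ± 3.41 CPM with DMSO (log2 1.48 ± 0.07 and 0.72 ± 0.07, adjusted p = 3.85e-13 and 1.29e-08). HSPG2, which encodes perlecan, rose with BE-43547A1 by 0.68 ± 0.09 (adjusted p = 3.06e-06) and did not pass with rakicidin A (0.14 ± 0.09, adjusted p = 0.184; -0.22 with total counts alone). SPARC, a collagen-binding protein, fell by 0.64 ± 0.07 and 0.38 ± 0.06. NTN1 rose by 0.58 ± 0.12 and 0.83 ± 0.11, the change with rakicidin A losing its call with total counts alone (0.22). Of 17 receptors for collagens and laminins, 4 rose and 7 fell with rakicidin A, and 7 rose and 3 fell with BE-43547A1. Scaled by total counts alone, 4 rose and 11 fell with rakicidin A, and with BE-43547A1 the balance turned to 4 that rose and 8 that fell. DDR2, a receptor kinase for fibrillar collagens, averaged 34.6 ± 3.10 CPM with rakicidin A, 61.7 ± 1.88 CPM with BE-43547A1 and 2.64 ± 0.249 CPM with DMSO, and rose by 3.71 ± 0.10 and 4.54 ± 0.09 (adjusted p = 1.87e-16 and 9.67e-18). The syndecan SDC4 rose by 1.28 ± 0.06 and 1.86 ± 0.06 and SDC1 fell by 1.13 ± 0.07 and 0.73 ± 0.07. ITGA2, the alpha chain of a collagen and laminin integrin, averaged 921.5 ± 14.4 CPM with rakicidin A, 916 ± 25.7 CPM with BE-43547A1 and 626.5 ± 20.1 CPM with DMSO and rose by 0.56 ± 0.05 and 0.55 ± 0.05.

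Of 12 tested relatives, substrates and inhibitors of ADAMTS proteases, 5 rose and 4 fell with rakicidin A, and 5 rose and 2 fell with BE-43547A1. No rise with rakicidin A was left with total counts alone, where 5 fell, and 3 rose and 3 fell with BE-43547A1. THSD4, an ADAMTS-like protein, rose by 0.43 ± 0.06 and 0.36 ± 0.06, and both calls were lost with total counts alone (0.07 and 0.12). PAPLN, which encodes papilin, fell by 1.55 ± 0.14 and 1.37 ± 0.13, and RECK, a membrane-bound protease inhibitor, by 1.22 ± 0.10 and 1.13 ± 0.10. FBN2, which encodes a fibrillin, averaged 0.152 ± 0.0692 CPM with rakicidin A, 1.725 ± 0.460 CPM with BE-43547A1 and 0.0291 ± 0.0284 CPM with DMSO, too few DMSO counts for a fold change. Of 16 ligands, receptors and targets of TGF-beta, which induces many collagens, 8 rose and 4 fell with rakicidin A, and 10 rose and 4 fell with BE-43547A1. With total counts alone the balance turned with rakicidin A, where 5 rose and 8 fell, and 6 rose and 5 fell with BE-43547A1. CTGF averaged 164 ± 7.44 CPM with rakicidin A, 157 ± 7.56 CPM with BE-43547A1 and 40.8 ± 1.90 CPM with DMSO (log2 2.01 ± 0.06 and 1.95 ± 0.06). TGFB2 rose by 1.16 ± 0.06 and 0.47 ± 0.06, and the coreceptor TGFBR3 fell by 2.10 ± 0.14 and 2.28 ± 0.13.

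Markers of endothelial and acinar cells were near 0, and those of fibroblasts, stellate cells and leukocytes were low, at no more than 4.57 CPM in sum. Sums of this size still exceeded the levels of rare members such as LAMA1, COL20A1 and COL5A3. The 10 fibroblast and stellate cell markers summed to 2.80 to 3.09 CPM with rakicidin A, 3.37 to 4.20 CPM with BE-43547A1 and 3.12 to 4.06 CPM with DMSO, with PDPN at 0, and of 2 tested, THY1 fell with rakicidin A by 0.52 ± 0.17 (adjusted p = 0.00975) and ACTA2 did not pass. The 7 endothelial markers matched summed to at most 0.767, 0.732 and 0.568 CPM in the 3 groups, and the 6 acinar markers to at most 0.128, 0.180 and 0.126 CPM. The 7 leukocyte markers summed to 2.43 to 2.88 CPM with rakicidin A, 3.71 to 4.57 CPM with BE-43547A1 and 1.74 to 2.25 CPM with DMSO, with CD3E at 0. CD68 was higher with both compounds, and CD14 and ITGAM with BE-43547A1. The 9 duct and epithelial markers, which belong to the labelled tissue, summed to 2516 to 2632 CPM with rakicidin A, 3472 to 3736 CPM with BE-43547A1 and 2934 to 3110 CPM with DMSO. Their part in the collagen and laminin changes was not tested.

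The 29 untested genes were 17 collagens, 11 ADAMTS proteases and the laminin LAMB4, and no library held more than 15 counts of any of them. ADAMTS4, a main aggrecanase, had 2, 5 and 3 counts with rakicidin A, 15, 11 and 11 with BE-43547A1 and 2, 2 and 1 with DMSO. In a fit without the count filter, 3 of the 29 passed against DMSO, each with 1 compound only. The share of all features that passed in that fit is not given here, so nothing is read from this count. ADAMTS4 passed with BE-43547A1 at a log2 fold change of 2.51 (adjusted p = 0.00038), and COL1A2 with BE-43547A1 at 2.73 (adjusted p = 0.00985). COL10A1, a collagen of cartilage growth plates, passed as lower with rakicidin A (adjusted p = 0.0263), with 0 counts in all 3 rakicidin A libraries, 3, 1 and 0 with BE-43547A1 and 1, 6 and 2 with DMSO, too few for a fold change. COL1A2 had 1, 3 and 1 counts with rakicidin A, 11, 8 and 0 with BE-43547A1 and 0, 1 and 1 with DMSO, so its BE-43547A1 libraries overlapped the others. The other fibrillar genes COL24A1 and COL2A1 had 58 and 47 counts in all, and ADAMTS12, a protease of cartilage matrix, had 61. LAMB4 had 4 counts with rakicidin A, 4 with BE-43547A1 and 10 with DMSO, summed over 3 libraries. At these depths a change was mostly not detectable.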

How the data were processed

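Libraries of total RNA, 3 per group and 9 in all, were read as paired ends of 76 bases on an Illumina NextSeq, per the labels' protocols. TopHat2 and HTSeq (both listed with version 2) and the builds GRCh37 and hg19 are named in the submitters' processing notes, and the settings and strand use were not given in the sources used here. Raw counts, not normalized, make up the table the authors deposited, with 112171 features, and its summary entries that name no gene (19.1 to 22.4% of reads at more than 1 site, 16.4 to 20.8% on no feature) were set aside. No other columns of per-sample values were present.

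Analysis used edgeR 4.0.16 in R 4.3.3: filterByExpr by group (a minimum count of 10, or 0.326 CPM, in 3 libraries) kept 22353 features, TMM scaled the libraries, and group means were fitted by quasi-likelihood to all 9 libraries together (6 residual degrees of freedom). P-values were adjusted by Benjamini-Hochberg over all features tested. Dividing each log2 fold change by the root of its F statistic gave the standard error, and intervals are at 95%. A prior count of 2 entered the log CPM by which replicate numbers were checked for pairing. Values per kilobase use the merged length of all exons of a gene in GENCODE v29. Chain ratios were compared by exact permutation. Genes and lists were chosen with earlier results of these data known. Values in every library are given for genes that passed against DMSO by at least 1 on the log2 scale, for the 2 most abundant genes of each family, and for genes that passed by at least 1 between the compounds. Of each list, up to 4 genes are named, by the lowest product of their unadjusted p against DMSO. Single values of 2 genes that enter the counts are not reported here. The fits were repeated with DESeq2 1.42.0, with no filter, with RLE size factors or total counts alone, and with the 6 libraries compared, the replicate number as a block, thinning to 26203326 counts, a log2 fold change of at least 1, and each library left out. On simulated data for rakicidin A against DMSO with 22353 genes, 46.2% of genes simulated at 1.5-fold, 73.8% at 2-fold and 90.2% at 4-fold were recovered, and 8.28% of 145 calls were false. Only 65, 65 and 61 genes were changed at these sizes, while 64.7% of all features passed in the data, so these rates do not carry over. The simulation was also set to stop below a fixed recovery at 4-fold or above a fixed share of false calls. Plots used python 3.11.15 and matplotlib 3.10.9.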

Additional observations from a re-analysis of the deposited data

How the results depend on the processing

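For the genes given per library, 1087 of the comparisons with an alternative kept their direction and their side of the threshold. With the direction kept, 12 gained a call and 23 lost one. A further 21 changed sign and were counted so whether or not the call changed too. One of them, COL5A2 with rakicidin A under total counts alone (-0.33), also gained a call. With total counts alone, 26 genes were lower with rakicidin A (17 with TMM). Requiring a log2 fold change of at least 1 left 7 lower genes and 6211 features with rakicidin A, 4 lower genes and 7075 features with BE-43547A1, and 1 higher gene, 0 lower genes and 2167 features between the compounds. With 1 library left out, rakicidin A gave 15 to 16 higher and 14 to 17 lower genes and 13611 to 14832 features. BE-43547A1 gave 15 to 16 higher and 12 to 18 lower genes (12 without its replicate 2) and 15110 to 16454 features. Between the compounds there were 4 to 5 higher and 9 to 13 lower genes and 8878 to 11456 features. Replicate numbers did not pair libraries (correlations of same-numbered libraries -0.06 to 0.12). With the replicate block, 16 genes were higher and 17 lower with rakicidin A, 16 and 18 with BE-43547A1, and 5 and 11 between the compounds. The lower genes with rakicidin A were not all the same, as LAMB2 lost its call (-0.14) and LAMC3 gained one (-0.28). Between the compounds COL11A1 lost its call (-0.13).

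The cause of the changes of sign was not tested. Against DMSO with rakicidin A they concerned COL18A1 with 1 library left out (-0.062 to 0.024, positive without DMSO replicate 1 or rakicidin A replicate 3), COL5A2 with total counts alone (-0.33) or 1 library left out (-0.02 to 0.089, negative without DMSO replicate 3), and LAMC1 with total counts alone (-0.23). Between the compounds, total counts alone turned ADAMTS13 (-0.085), COL5A2 (-0.03) and LAMB3 (-0.11), thinning turned ADAMTS10 (0.11) and LAMB3 (-0.003), and no filter turned LAMB3 (-0.01). With 1 library left out, the difference ran from -0.47 to 0.25 for ADAMTS10, -0.21 to 0.37 for ADAMTS13, -0.40 to 0.053 for ADAMTS3 and -0.022 to 0.071 for LAMB3. Genes under the count minimum in DMSO (6 of the 46) limit the size of their fold changes, and thinning left too few counts to test some of them.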

Other observations

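The transcript on the opposite strand of the protease gene ADAMTS9, ADAMTS9-AS1, had 0, 1 and 0 counts with rakicidin A, 16, 30 and 12 counts with BE-43547A1 and 0, 2 and 0 counts with DMSO. It was looked up because its name holds that of a family member, and it was chosen after its values were seen. ADAMTS9 itself had 6 counts with rakicidin A, 11 with BE-43547A1 and 3 with DMSO, summed over 3 libraries, and was not tested. The antisense transcript COL18A1-AS1 had 1, 1 and 2 counts with rakicidin A, 5, 1 and 3 counts with BE-43547A1 and 5, 8 and 6 counts with DMSO.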
